A study of Saccharomyces cerevisiae with 39 samples.

Results

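The 10 genes described here carry ethanol and acetate carbon through the glyoxylate cycle into glucose synthesis. They were chosen by name: ADH2 (YMR303C), ACS1 (YAL054C), ADY2 (YCR010C), ICL1 (YER065C), MLS1 (YNL117W), CIT2 (YCR005C), MDH2 (YOL126C), SFC1 (YJR095W), PCK1 (YKR097W) and FBP1 (YLR377C). They make up 10 of the 6186 features in the count table, and all 10 were among the 5840 features with enough counts to test. The study measured poly(A) RNA by strand-specific, paired-end sequencing in 39 libraries of diploid budding yeast, 3 from each of 13 strains. Cells had grown in acetate medium before transfer to sporulation medium, whose main carbon source is also acetate, and 50 µM copper sulphate was added 3 h after transfer. The collection time is not given in the labels.

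The strains differ in PHO92, the gene of a YTH-domain reader of m6A, a methylated adenosine of mRNA, and the series asks which parts of the protein's intrinsically disordered region matter. In 10 variant strains the endogenous gene was deleted (hyg::pho92) and an HA-tagged, altered PHO92 was placed at trp1 under the copper-inducible CUP1 promoter. W177A, W5A, W18A and W5A_W18A carry tryptophan-to-alanine substitutions, and W177A lies in the YTH domain. The strains del1_70, del28_52, del110_155 and del28_52_130_155 lack the stretches numbered in their names, and W5A_W18A_del28_52 joins substitutions with a deletion. The titles of W5A_W18A_del28_52_110_155 name substitutions and deletions, whereas its genotype names the deletions alone. CUP1_WT carries unaltered PHO92 in the same construct, pho92_null carries the deletion without a construct, and WT keeps the endogenous gene. All 13 strains are MATa/alpha, with the markers trp1::hisG, his3::hisG, leu2::hisG, ura3, lys2 and ho::LYS2, and the copper step is described for all of them. An early meiotic arrest is mentioned for the cultures, but no genotype lists an arrest allele. Nothing in the labels says that the 3 libraries of a strain came from separate cultures, so p-values measure the spread between these libraries, which may be technical.

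Yeast growing on ethanol oxidises it to acetate, and acetate enters metabolism as acetyl-CoA. The glyoxylate cycle bypasses the steps of the citric acid cycle that release carbon dioxide, so that acetyl units can be built into malate and oxaloacetate, and gluconeogenesis then turns oxaloacetate into glucose phosphates. On glucose these genes are repressed. When glucose is gone, the kinase Snf1 and the zinc-finger activators Cat8, Sip4 and Adr1 switch them on. Acetate is also the carbon source on which diploid yeast enters meiosis.

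Cat8 and Sip4 bind the carbon source-responsive element (CSRE), and the stretch from 150 to 700 bases before each coding start was searched on both strands for its core, CGG and GGA with any 6 bases between them. The sequences are RefSeq's for assembly R64, and those of the strains used may differ. The core was found upstream of 9 of the 10 genes, all but CIT2, against 8.59% of 6005 such windows in the genome. The sites are shown because they are what these genes share by sequence. Capitals mark the core, each sequence is written on the strand where the core begins with CGG, and distances run from the coding start to the far end of the core. Where a gene has several matches, the one with most letters in common with the core of ICL1 is given.
ICL1 (chrV:287288-287327, plus strand, 399 bases before the start): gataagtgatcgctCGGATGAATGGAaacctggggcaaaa
MLS1 (chrXIV:405813-405852, plus strand, 531 bases): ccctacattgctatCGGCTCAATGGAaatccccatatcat
PCK1 (chrXI:630576-630615, plus strand, 562 bases): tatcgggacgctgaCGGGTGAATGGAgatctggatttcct
FBP1 (chrXII:875271-875310, minus strand, 504 bases): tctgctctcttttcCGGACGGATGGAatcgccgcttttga
ACS1 (chrI:45369-45408, plus strand, 372 bases): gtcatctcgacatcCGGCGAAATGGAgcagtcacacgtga
ADY2 (chrIII:133603-133642, plus strand, 504 bases): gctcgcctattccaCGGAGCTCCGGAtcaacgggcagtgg
MDH2 (chrXV:83328-83367, minus strand, 433 bases): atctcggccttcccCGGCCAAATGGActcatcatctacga
ADH2 (chrXIII:874791-874830, plus strand, 479 bases): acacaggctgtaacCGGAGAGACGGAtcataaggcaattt
SFC1 (chrX:609141-609180, plus strand, 618 bases): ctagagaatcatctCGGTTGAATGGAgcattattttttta
A narrower pattern, CGG and ATGGA with any 4 bases between them, written down after these sequences were seen, was upstream of 7 of the 10 genes and in 0.866% of the windows. ADY2 and ADH2 have the wider core alone.

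The half-site of Adr1, TTGGAG, was found upstream of 3 of the 10 genes (ADY2, CIT2 and ADH2), against 23% of the windows. ADH2 alone among the 10 had 2 half-sites on opposite strands within 20 bases, in an inverted arrangement found in 0.0833% of the windows. Capitals mark both half-sites of this stretch, of which the first reads as CTCCAA on the strand of the gene.
ADH2 (chrXIII:874595-874642, minus strand, 291 bases): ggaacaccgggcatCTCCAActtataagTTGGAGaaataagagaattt
CIT2, which encodes the peroxisomal citrate synthase and is the textbook target of the retrograde activators Rtg1 and Rtg3, had no CSRE core in its window and 3 copies of their R box, GTCAC. The R box is short and was found upstream of 6 of the 10 genes and in 48.2% of the windows. The CIT2 window overlaps the neighbouring gene YCR006C. The 3 CIT2 stretches are shown with the R box in capitals.
CIT2 (chrIII:122655-122687, minus strand, 345 bases): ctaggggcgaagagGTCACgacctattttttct
CIT2 (chrIII:122622-122654, plus strand, 312 bases): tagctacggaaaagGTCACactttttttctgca
CIT2 (chrIII:122506-122538, plus strand, 196 bases): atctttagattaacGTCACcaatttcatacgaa

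The 39 libraries held between 15928411 and 37186964 counts (median 20694394), of which the 10 genes took 4.93% to 8.04%. Levels are counts per 1000000 (CPM), scaled by the trimmed mean of M-values. PHO92 stood at 8197, 9805 and 11230 CPM in the CUP1_WT strain, at 0.941, 2.37 and 0.0919 CPM in pho92_null libraries and at 1054, 957 and 802 CPM in WT libraries. The deletion strain thus matched its label, and all CUP1_WT libraries had more PHO92 RNA than any WT library. Over the variants PHO92 ran from 5384 to 16630 CPM, with W5A and W5A_W18A at 12750 or above. Of 10 haploid cell markers, the pheromone transcript MFA2 was lowest, at or under 0.944 CPM in every library of these diploids. STE4 stood at 16.7 to 163 CPM and STE18 reached 78.5 CPM, and the 10 summed to between 138 and 487 CPM. STE18, STE4 and FAR1 were called lower in pho92_null than in WT and higher in CUP1_WT than in pho92_null. The summed level of 10 early meiosis markers lay between 4480 and 24100 CPM, and that of 10 middle meiosis markers, NDT80 and genes of its program, between 87 and 34600 CPM. Replicate 3 of del110_155 had the lowest sum of both lists and stands apart from the other 2 libraries of its strain. In bulk RNA, fewer cells of a type and less RNA per cell cannot be told apart.

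Per kilobase of coding length, the 10 genes spanned a wide range of levels, averaged over the 39 libraries. ADY2, the plasma membrane acetate transporter, stood highest at 20710 CPM per kb, and ACS1, the acetyl-CoA synthetase of non-fermenting cells, followed at 8055. MDH2 (5194), CIT2 (4446), ADH2 (4308) and MLS1 (3244) lay between, then ICL1 (1974) and PCK1 (1703). SFC1, the mitochondrial succinate-fumarate carrier, had 337 and FBP1, fructose-1,6-bisphosphatase, 105 CPM per kb. The acetate entry genes were thus far above fructose-1,6-bisphosphatase. ADH2 varied most between strains, with strain means 4.74-fold apart, followed by FBP1 (2.58-fold) and PCK1 (2.26-fold), and MDH2 varied least (1.3-fold).

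**Figure D1:**
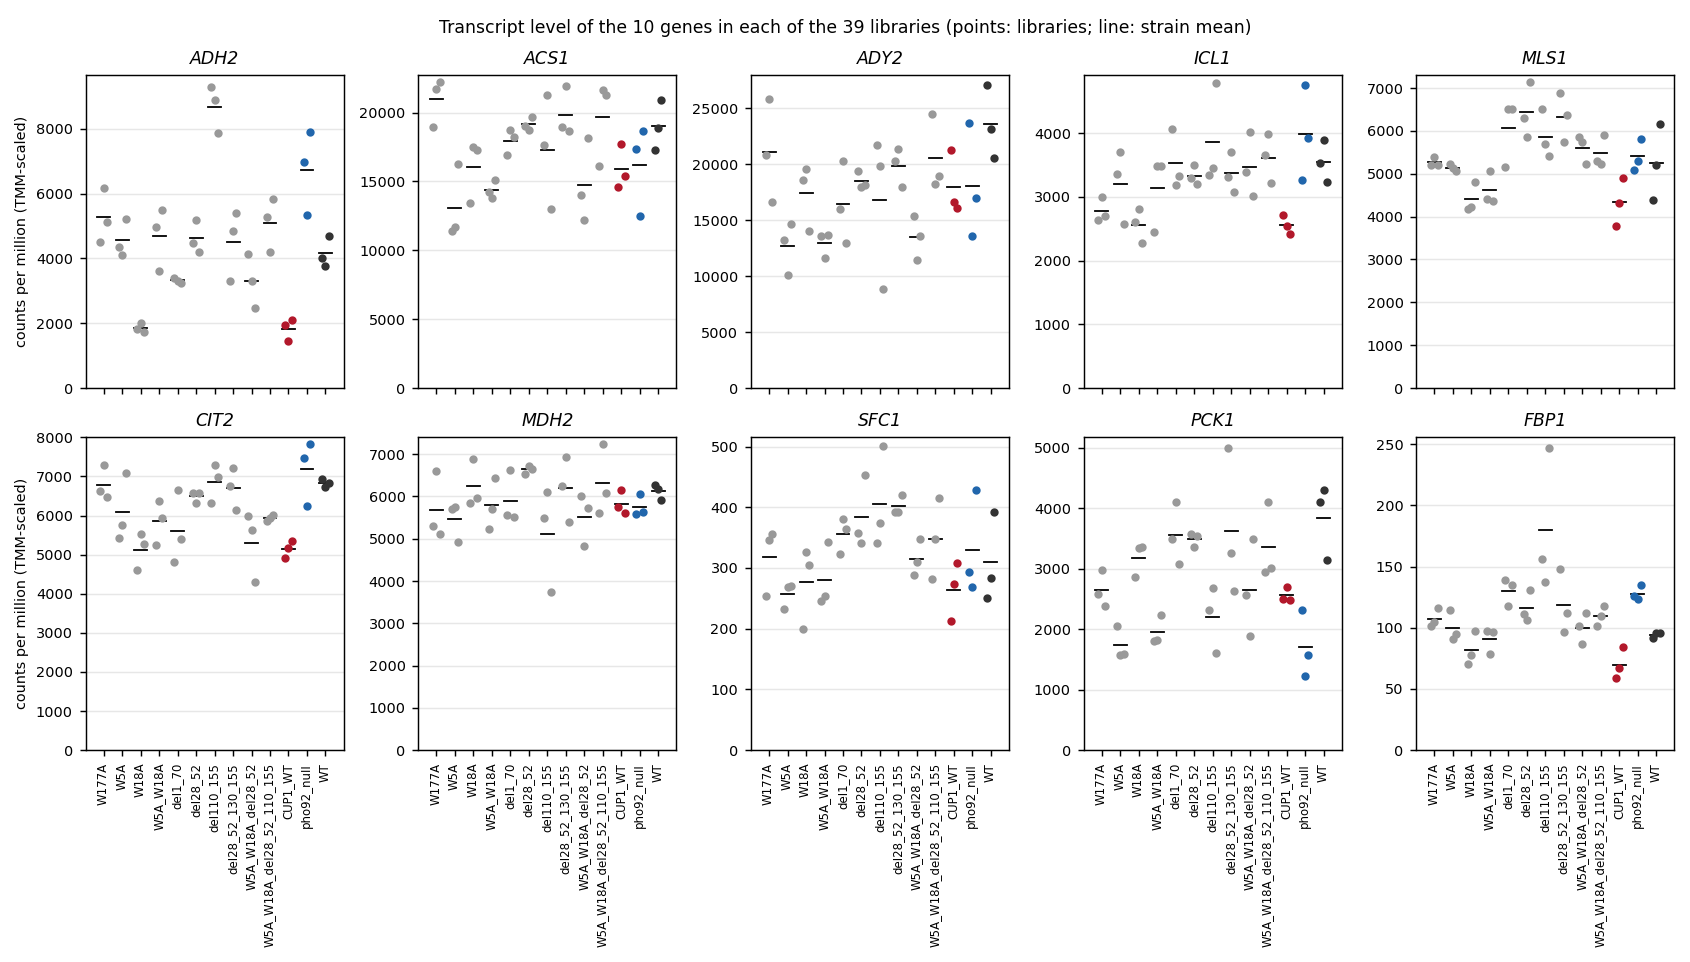
Level in CPM of each of the 10 genes (y axis, linear, from 0) in the 3 libraries of each of the 13 strains (x axis), with a line at the strain mean. ADH2 is lowest in W18A and CUP1_WT, all of whose libraries are at or under 2087 CPM, while ACS1, ADY2 and MDH2 overlap across most strains.

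The comparisons ask which of the 10 genes respond to the alterations of PHO92. Each was tested with limma on log2 CPM over all 5840 genes, and a gene was called at a Benjamini-Hochberg adjusted p under 0.05. Fold changes are given on the log2 scale, with their standard error (SE). Against CUP1_WT, every call among the 10 genes was a rise in the variant. W177A had 3 of 10 called, where 20.5% of all genes tested were called and 13.5% were called higher. W5A had 2 (39% of all genes called, 20.9% higher) and W5A_W18A had 1 (33.2% called, 16.7% higher). Of the deletions, del1_70 had 3 (9.26% called, 6.68% higher), del28_52 had 3 (19.3% called, 11% higher), del110_155 had 6 (45.8% called, 22.3% higher) and del28_52_130_155 had 5 (21.6% called, 12.4% higher). W5A_W18A_del28_52 had 2 (11.5% called, 8.13% higher) and W5A_W18A_del28_52_110_155 had 3 (13% called, 8.49% higher). Of all genes called in W5A_W18A_del28_52, 70.5% were higher, against 52.7% with median-of-ratios (RLE) scaling and 57.5% without the low-count filter, and 1 of the 10 was then called. W18A had 0 of 10 called by limma (0% of all genes), 0 at an unadjusted p under 0.05 and 0 with limma-voom weights. The share of the 10 genes called higher lay below that of all genes in W5A and W5A_W18A and above it in the 7 other variants with calls. Among 10 genes each call moves the share by 10 percentage points, and all variants share the 3 CUP1_WT libraries.

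Against pho92_null the calls went in both directions. CUP1_WT had 5 of 10 called (39.9% of all genes, 20.8% lower) and W18A the same 5 (38.4%, 20.4% lower): PCK1 rose, and ICL1, FBP1, CIT2 and ADH2 fell. Of the other variants, del1_70 had 2 called (10.6%), and del28_52 (4.5%), del28_52_130_155 (3.42%), W5A_W18A_del28_52 (0.925%) and W5A_W18A_del28_52_110_155 (11.7%) had 1 each. No gene of the 10 was called by limma, or with limma-voom weights, in W177A (4.83%), W5A (14.6%), W5A_W18A (10.5%) or del110_155 (0.205%). At an unadjusted p under 0.05 these comparisons had 2, 2, 4 and 1 of the 10. In the same order, 1406, 1631, 1431 and 708 of all 5840 genes tested were under that threshold. The share of all genes called in W177A against pho92_null moved with single libraries, to 0.0171% without W177A replicate 1 or pho92_null replicate 2, 0.0343% without W177A replicate 2, 1.88% without W177A replicate 3 and 14.4% without pho92_null replicate 1. Against WT, pho92_null had 3 of 10 called (33.2% of all genes) and CUP1_WT 1 (1.66%).

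**Figure D2:**
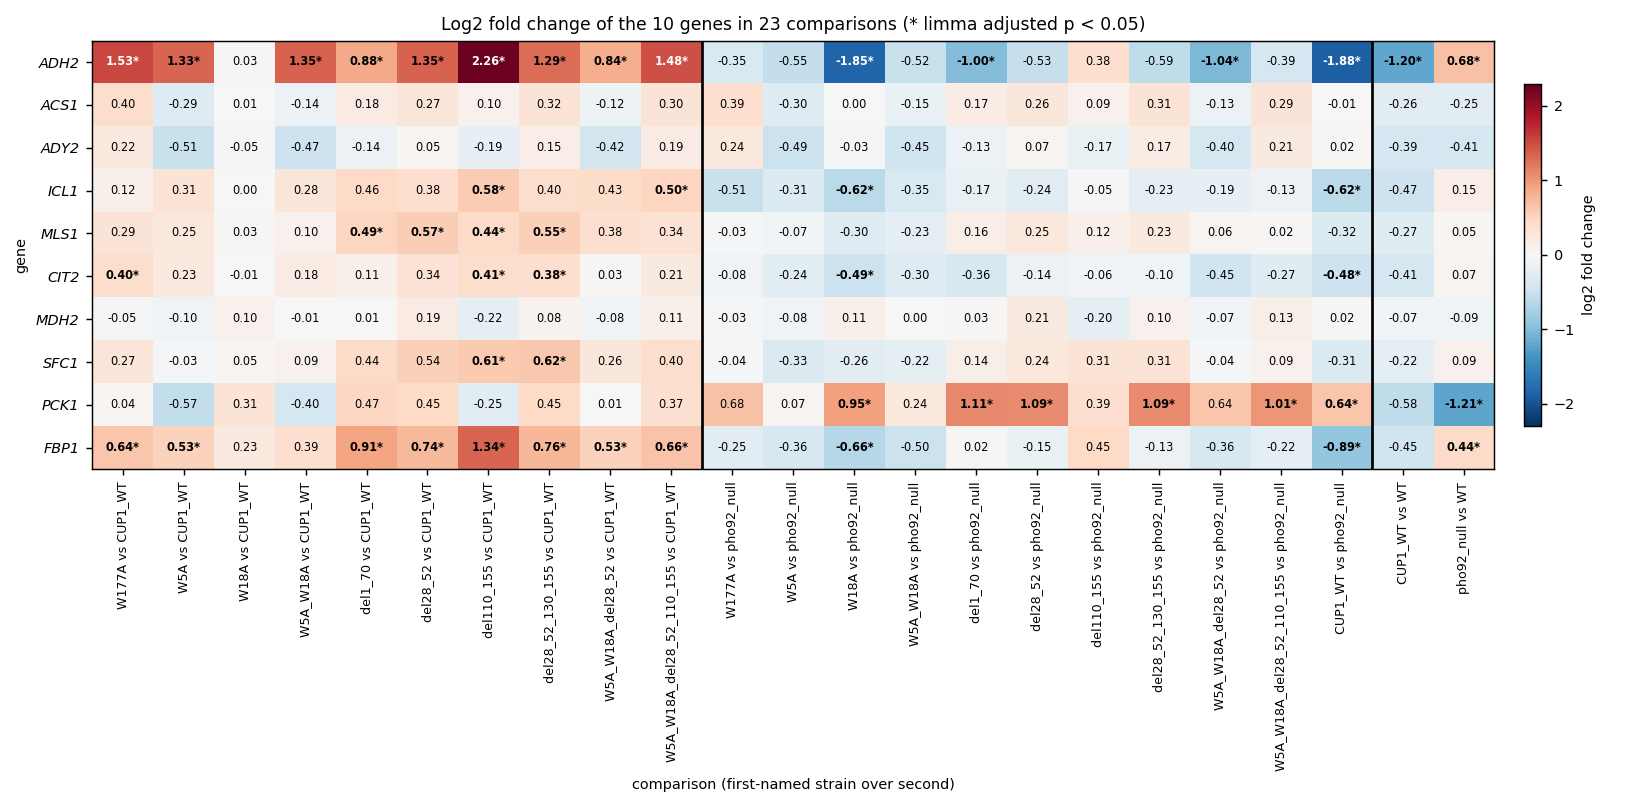
Log2 fold change (colour and printed value) of the 10 genes (rows) in 23 comparisons (columns), the first-named strain over the second; an asterisk marks a limma adjusted p under 0.05. The ADH2 row is positive in all 10 variants over CUP1_WT and the PCK1 row is positive in all 10 variants over pho92_null.

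ADH2 encodes the alcohol dehydrogenase that oxidises ethanol to acetaldehyde, and it changed most. CUP1_WT libraries had 1943, 1459 and 2087 CPM, pho92_null libraries 6961, 5330 and 7905, and WT libraries 4022, 3758 and 4705. The 3 strains did not overlap: CUP1_WT was lowest, WT between and pho92_null highest. ADH2 fell in CUP1_WT by 1.88 against pho92_null (SE 0.20, limma adjusted p = 7.55e-08) and by 1.20 against WT (SE 0.20, limma adjusted p = 0.000754). In pho92_null it rose by 0.68 against WT (SE 0.20, limma adjusted p = 0.013). That last call was lost without WT replicate 1 (limma adjusted p = 0.0508), WT replicate 2 (0.0808) or pho92_null replicate 3 (0.0708). The fall in CUP1_WT against WT was not called when only those 2 strains were fitted (-1.19, limma adjusted p = 0.126). Summed middle meiosis markers lay at 6790 to 34600 CPM in CUP1_WT and 6820 to 28400 CPM in WT. Their part in the ADH2 difference between these 2 strains was not tested.

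Among the variants, del110_155 had the most ADH2 RNA, with 9279, 8892 and 7862 CPM, which was 2.26 above CUP1_WT (SE 0.20, limma adjusted p = 5.19e-09). All 3 libraries lay above every CUP1_WT library and overlapped those of pho92_null. W177A had 4501, 6178 and 5132 CPM, a rise of 1.53 over CUP1_WT (SE 0.20, limma adjusted p = 2.74e-06). W18A stood at 1814, 2016 and 1715 CPM, within the range of CUP1_WT, and its difference of 0.03 had a 95% interval of -0.39 to 0.44. W18A was the one variant whose ADH2 level was not called above CUP1_WT.

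The other variants lay between these. W5A had 4349, 4093 and 5228 CPM and W5A_W18A 4962, 3617 and 5503 CPM, and these libraries overlapped. The deletion strain del28_52 had 4487, 5181 and 4209 CPM, del28_52_130_155 had 3308, 4843 and 5394, and W5A_W18A_del28_52_110_155 had 5277, 4197 and 5828. The 2 lowest of the called variants were del1_70 (3400, 3315 and 3241 CPM) and W5A_W18A_del28_52 (4138, 3305 and 2464 CPM). Their rises over CUP1_WT were 0.88 (limma adjusted p = 0.00447) and 0.84 (limma adjusted p = 0.00611). Both calls were lost without CUP1_WT replicate 2 (limma adjusted p = 0.0662 for del1_70 and 0.0907 for W5A_W18A_del28_52), and the second also without its own replicate 1 (0.0618). In the order of strain means, neighbours overlapped except between WT and del1_70 and between W5A_W18A_del28_52 and W18A.

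ADH2 also fell against pho92_null in W18A (by 1.85, limma adjusted p = 1.05e-07), del1_70 (by 1.00, limma adjusted p = 0.00597) and W5A_W18A_del28_52 (by 1.04, limma adjusted p = 0.00558). The last of these was lost without pho92_null replicate 3 (limma adjusted p = 0.0813) or its own replicate 3 (0.0643). W5A, at -0.55 against pho92_null, was not called. With the replicate number as a block, which pairs the libraries in that comparison, it was called (limma adjusted p = 0.0495).

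The middle meiosis markers ran opposite to ADH2 in part, with low sums in several strains where ADH2 was high. Their sums lay between 87 and 1130 CPM in del110_155, 418 and 1800 in W5A, 1170 and 9240 in W177A, 5560 and 29700 in W18A, 6790 and 34600 in CUP1_WT and 515 and 5160 in pho92_null. W5A_W18A_del28_52_110_155 went against this, with a mean of 5101 CPM of ADH2 and marker sums of 3620 to 25500 CPM. WT had 4161 CPM of ADH2 and sums of 6820 to 28400 CPM. The sums were 630 to 1130 CPM in W5A_W18A, 3140 to 7560 in del28_52 and 2740 to 10600 in del28_52_130_155. They were 5790 to 21400 CPM in del1_70 and 6960 to 11800 in W5A_W18A_del28_52. All 10 markers were called lower in del110_155 than in CUP1_WT, and 0 of 10 in W177A (median log2 fold change -2.05, 4 of 10 at an unadjusted p under 0.05 and 0 with limma-voom weights). Their part in the ADH2 result was not tested. Without del110_155 replicate 3, the library that stands apart, the ADH2 rise over CUP1_WT was 2.33 (limma adjusted p = 4.28e-08), and 4 of the 10 genes were called there (33.3% of all genes tested).

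ADH2 has a close copy in ADH1, the alcohol dehydrogenase of fermenting cells. Their coding sequences are both 1047 bases long and 88.8% identical in R64, and 90 of the 948 windows of 100 bases in ADH2 occur unbroken in ADH1, so some reads could have been assigned to either. ADH1 averaged 471 CPM in CUP1_WT, 585 CPM in pho92_null and 424 CPM in WT. It was not called in CUP1_WT against pho92_null (-0.37, limma adjusted p = 0.287) or against WT (0.10, limma adjusted p = 1). In W5A, however, ADH1 rose by 0.94 over CUP1_WT (limma adjusted p = 0.00847), beside the ADH2 rise of 1.33. ADH1 was below the ADH2 level of the same strain in all 13 strain means.

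FBP1 catalyses a late step of gluconeogenesis, which opposes phosphofructokinase. CUP1_WT libraries had 58.6, 66.8 and 84.1 CPM, pho92_null libraries 126, 123 and 135, and WT libraries 91.8, 95.7 and 95.8. CUP1_WT lay below the others without overlap. FBP1 fell in CUP1_WT against pho92_null by 0.89 (SE 0.17, limma adjusted p = 0.000219), and in CUP1_WT against WT it was at -0.45 and not called (limma adjusted p = 0.241). In pho92_null against WT it was called at 0.44 (limma adjusted p = 0.0484), but in none of the 6 fits that left out 1 of these libraries (adjusted p from 0.0679 to 0.133).

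FBP1 rose over CUP1_WT in 8 of 10 variants. The highest level was in del110_155, with 157, 137 and 247 CPM, a rise of 1.34 (SE 0.17, limma adjusted p = 1.11e-06). Its replicate 3, the library with the low meiosis markers, was the highest of all 39, and without it the rise was 1.09 (limma adjusted p = 1.66e-05). The others ranged from 0.53 in W5A and W5A_W18A_del28_52 to 0.91 in del1_70. W5A_W18A (0.39) and W18A (0.23) were not called, and W18A was the lowest variant, with 70.5, 77.7 and 97.2 CPM. With the replicate number as a block, W5A_W18A was called over CUP1_WT (limma adjusted p = 0.0276) and against pho92_null (-0.50, 0.0146).

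Some FBP1 calls rested on single CUP1_WT libraries. Without CUP1_WT replicate 1, the library with least FBP1, the calls for W177A (limma adjusted p = 0.111), W5A (0.154), W5A_W18A_del28_52 (0.272) and W5A_W18A_del28_52_110_155 (0.0787) were lost. Without CUP1_WT replicate 2 those for W177A (0.0528), W5A (0.0781) and W5A_W18A_del28_52 (0.172) were lost. The W5A call was also lost without W5A replicate 1 (0.0859), and that of W5A_W18A_del28_52 without its replicate 1 (0.103) or 3 (0.154). The rises in del1_70, del28_52, del110_155 and del28_52_130_155 were called whichever 1 library was left out. When only the 2 strains were fitted, however, del1_70 (limma adjusted p = 0.0855) and del28_52_130_155 (0.0541) were not called. Nor were W5A (limma adjusted p = 0.0544), W5A_W18A_del28_52 (0.213) and W5A_W18A_del28_52_110_155 (0.119).

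PCK1 encodes phosphoenolpyruvate carboxykinase, the enzyme that commits oxaloacetate to gluconeogenesis, and it ran the other way. CUP1_WT libraries had 2495, 2698 and 2486 CPM, pho92_null libraries 2317, 1221 and 1572, and WT libraries 4101, 4297 and 3147. Here pho92_null was lowest and WT highest, with no overlap between the 3 strains. PCK1 fell in pho92_null against WT by 1.21 (SE 0.23, limma adjusted p = 0.000577), whereas FBP1 and ADH2 were called higher there. In CUP1_WT against pho92_null it was called at 0.64 (limma adjusted p = 0.0309). That call was lost without pho92_null replicate 2 (0.21) or 3 (0.0816) and without CUP1_WT replicate 1 (0.0616) or 2 (0.0774). It was also lost when only those 2 strains were fitted (limma adjusted p = 0.0942). All 10 middle meiosis markers were called lower in pho92_null than in WT and higher in CUP1_WT than in pho92_null, and their part in the PCK1 result was not tested.

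PCK1 rose over pho92_null in 5 of 10 variants: del1_70 (1.11), del28_52 (1.09), del28_52_130_155 (1.09), W5A_W18A_del28_52_110_155 (1.01) and W18A (0.95, limma adjusted p = 0.00261). The lowest variants were W5A (2047, 1582 and 1587 CPM), W5A_W18A (1800, 1822 and 2234 CPM) and del110_155 (2315, 2677 and 1603 CPM), whose libraries overlapped those of pho92_null. These 3 strains also had low sums of middle meiosis markers, at most 1800 CPM, and the part of that program in the PCK1 level was not tested. Without pho92_null replicate 2, the library with least PCK1, the calls for del1_70 (limma adjusted p = 0.114), del28_52 (0.155), del28_52_130_155 (0.175) and W5A_W18A_del28_52_110_155 (0.157) were lost. The calls were also lost without pho92_null replicate 3 for del28_52 (0.0543) and del28_52_130_155 (0.0584). Leaving out del28_52 replicate 1 (0.0716) or 3 (0.0637), del28_52_130_155 replicate 1 (0.0893) or W5A_W18A_del28_52_110_155 replicate 2 (0.111) ended the call of that strain. The rise in W18A was called whichever 1 library was left out, and also when only W18A and pho92_null were fitted. Such fits of 2 strains ended the calls for del1_70 (limma adjusted p = 0.156), del28_52 (0.0826), del28_52_130_155 (0.222) and W5A_W18A_del28_52_110_155 (0.203).

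Against CUP1_WT, PCK1 was called in 0 of 10 variants by limma or with limma-voom weights, and in 1, W5A, at an unadjusted p under 0.05. All libraries of W5A and of W5A_W18A lay below those of CUP1_WT, and all those of W18A (0.31), del1_70 (0.47), del28_52 (0.45) and W5A_W18A_del28_52_110_155 (0.37) lay above. When only the 2 strains were fitted, W5A (limma adjusted p = 0.0305), W5A_W18A (0.042) and del28_52 (0.0185) were called. W5A was at -0.57 (SE 0.23, limma adjusted p = 0.0537). With the replicate number as a block, which pairs the libraries of these 2 strains, it was called (limma adjusted p = 0.0445), as it was with RLE scaling (0.0486) and without W5A replicate 1 (0.0434). The order of the variants differed between ADH2 and PCK1: W5A had high ADH2 with low PCK1, del28_52 had high ADH2 with high PCK1, and W18A had low ADH2 with PCK1 above pho92_null.

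Calls in the glyoxylate cycle proper were smaller in size than those of ADH2. ICL1 encodes isocitrate lyase, its first dedicated enzyme, and had 2712, 2536 and 2421 CPM in CUP1_WT libraries, 3265, 4763 and 3926 in those of pho92_null and 3525, 3892 and 3231 in those of WT. CUP1_WT lay below the other 2 strains, which overlapped. ICL1 fell in CUP1_WT against pho92_null by 0.62 (SE 0.17, limma adjusted p = 0.00469) and by the same amount in W18A, where the call was lost without pho92_null replicate 2 (0.0517). Of the variants, del110_155 (0.58) and W5A_W18A_del28_52_110_155 (0.50) were called above CUP1_WT. The first call was lost without del110_155 replicate 3 (limma adjusted p = 0.0653), and the second without any 1 of the 6 libraries compared (0.0506 to 0.183). The replicate block added ICL1 calls over CUP1_WT in del1_70 (limma adjusted p = 0.0451), del28_52_130_155 (0.0486) and W5A_W18A_del28_52 (0.0462). It also added W177A against pho92_null (-0.51, limma adjusted p = 0.0354).

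MLS1 encodes malate synthase, which joins glyoxylate with acetyl-CoA, and was called over CUP1_WT in the 4 variants with deletions and no named substitution. These are del28_52 (0.57, limma adjusted p = 0.00307), del28_52_130_155 (0.55), del1_70 (0.49) and del110_155 (0.44). W5A_W18A_del28_52 (0.38, limma adjusted p = 0.0636) and W5A_W18A_del28_52_110_155 (0.34, limma adjusted p = 0.0901) lay near the threshold. The former was called with limma-voom weights (adjusted p = 0.0426) and with the replicate block (limma adjusted p = 0.0359). In del28_52 the libraries had 6308, 5863 and 7147 CPM, against 3787, 4318 and 4893 CPM in CUP1_WT. The call for del110_155 was lost without CUP1_WT replicate 1 (0.0698). That for del1_70 was lost without CUP1_WT replicate 1 (0.18) or 2 (0.0742) or del1_70 replicate 2 (0.0752) or 3 (0.104). Between CUP1_WT, pho92_null and WT, MLS1 was not called by limma, but CUP1_WT against pho92_null lay at the threshold (-0.32, limma adjusted p = 0.0527), with all CUP1_WT libraries below all pho92_null libraries. That comparison was called with limma-voom weights (adjusted p = 0.0372), with the replicate block (0.0389) and without pho92_null replicate 1 (0.0487) or CUP1_WT replicate 3 (0.0312).

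CIT2, the peroxisomal citrate synthase, had 4908, 5173 and 5351 CPM in CUP1_WT libraries, 7482, 6245 and 7842 in those of pho92_null and 6937, 6724 and 6830 in those of WT. CUP1_WT was again below the other 2, which overlapped. CIT2 fell in CUP1_WT against pho92_null by 0.48 (SE 0.14, limma adjusted p = 0.0082), and the call was lost without CUP1_WT replicate 1 (0.0522). In W18A it fell by 0.49 against pho92_null, a call lost without W18A replicate 1 (0.0631). Over CUP1_WT it was called in W177A (0.40), del110_155 (0.41) and del28_52_130_155 (0.38). The W177A and del28_52_130_155 calls were lost without any 1 of the libraries compared (0.0698 to 0.207 and 0.0524 to 0.181), and that of del110_155 without CUP1_WT replicate 1 (0.0627) or del110_155 replicate 2 (0.0518). In W5A_W18A_del28_52 against pho92_null, CIT2 was at -0.45 and was called with the replicate number as a block (limma adjusted p = 0.0406), which pairs those libraries.

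SFC1 exchanges the succinate made by isocitrate lyase for fumarate across the mitochondrial membrane. It was called over CUP1_WT in del28_52_130_155 (0.62, limma adjusted p = 0.0302) and del110_155 (0.61, limma adjusted p = 0.0165). The del28_52_130_155 libraries had 392, 393 and 420 CPM, against 213, 273 and 308 CPM in CUP1_WT. Both calls were lost without CUP1_WT replicate 1 (0.195 and 0.105). That of del28_52_130_155 was also lost without CUP1_WT replicate 2 (0.0616) or any 1 of its own libraries (0.0564 to 0.087), and that of del110_155 without its replicate 3 (0.12). With the replicate number as a block, which pairs the libraries, SFC1 was also called over CUP1_WT in del28_52 (0.54, limma adjusted p = 0.00185) and W5A_W18A_del28_52_110_155 (0.40, limma adjusted p = 0.0253). The block also called it in del1_70 over CUP1_WT (0.44, limma adjusted p = 0.0156) and in CUP1_WT against pho92_null (-0.31, 0.0452). Not all same-numbered libraries deviated together in those comparisons.

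MDH2, ACS1 and ADY2 were not called by limma in any of the 23 strain comparisons, and variants were not compared with each other. MDH2, the cytosolic malate dehydrogenase that closes the cycle, stayed between -0.22 and 0.19 in the variants against CUP1_WT and had 5742, 6147 and 5601 CPM in CUP1_WT libraries, 5584, 6061 and 5633 in those of pho92_null and 6274, 6172 and 5916 in those of WT. ACS1 lay between -0.29 and 0.40 and ADY2 between -0.51 and 0.22 against CUP1_WT. ADY2 was lowest in del110_155 replicate 3 (8880 CPM) and highest in WT replicate 1 (27110 CPM), a spread that overlapped between most strains. All ADY2 libraries of W5A (-0.51), W5A_W18A (-0.47) and W5A_W18A_del28_52 (-0.42) lay below those of CUP1_WT, and W5A_W18A was called when only those 2 strains were fitted (limma adjusted p = 0.047). All ACS1 libraries of W177A (0.40), del28_52_130_155 (0.32) and del28_52 (0.27) lay above those of CUP1_WT, with limma adjusted p-values of 0.143, 0.236 and 0.323.

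In CUP1_WT against WT all 10 genes had negative log2 fold changes (median -0.40, against 0.02 over all genes tested). ADH2 was the only one called (1.66% of all genes tested), and 5 of the 10 had an unadjusted p under 0.05, as had 614 of the 5840 genes tested. ICL1 (-0.47), PCK1 (-0.58), FBP1 (-0.45) and CIT2 (-0.41) had all CUP1_WT libraries below all WT libraries, as did ADH2. The shares of all genes that were negative or without overlap were not counted, so these patterns have no background to stand against. The medians of the 10 genes against CUP1_WT were 0.45 in del1_70, 0.43 in del110_155, 0.42 in del28_52 and in del28_52_130_155 and 0.28 in W177A, with -0.01 to 0.02 over all genes in those comparisons. In W5A and W5A_W18A they were 0.10 and 0.09, with 0.03 over all genes in both.

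W5A_W18A_del28_52 joins the changes of 2 other strains, and it was set against the sum of their effects. ADH2 rose by 1.35 over CUP1_WT in W5A_W18A and by 1.35 in del28_52, a sum of 2.7, whereas the joined variant was 0.84 above CUP1_WT. The departure was -1.87 (SE 0.29, limma adjusted p = 0.00228), and ADH2 was the only one of the 10 called in this contrast (12.6% of all genes tested). That share of all genes fell to 0.428% without CUP1_WT replicate 1, 0.788% without CUP1_WT replicate 2 and 1.28% without del28_52 replicate 3, and was 21.9% without CUP1_WT replicate 3. FBP1 departed by -0.60 (limma adjusted p = 0.0913) and CIT2 by -0.49 (0.0954). The FBP1 departure was called with the replicate block (limma adjusted p = 0.0276) and without CUP1_WT replicate 3 (0.0265). All 10 departures were at or below 0.00, with a median of -0.28, against -0.05 over all genes tested. The share of all genes with negative departures was not counted. For ADH2 the sum of 2.7 lay above the rise in every variant, of which del110_155 was highest at 2.26. It also lay above the level of pho92_null, against which CUP1_WT was at -1.88. A joined variant at the pho92_null level would thus also have fallen short of the sum. By strain mean the joined variant had 3302 CPM of ADH2, against 4694 CPM in W5A_W18A, with which it overlapped, and 4625 CPM in del28_52, with which it did not. PHO92 RNA was also lower there (8045, 6999 and 8554 CPM) than in W5A_W18A (15180, 16630 and 12750 CPM), and its middle meiosis sums were higher (6960 to 11800 CPM, against 630 to 1130 in W5A_W18A and 3140 to 7560 in del28_52). The part of either in the departure was not tested.

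**Figure D3:**
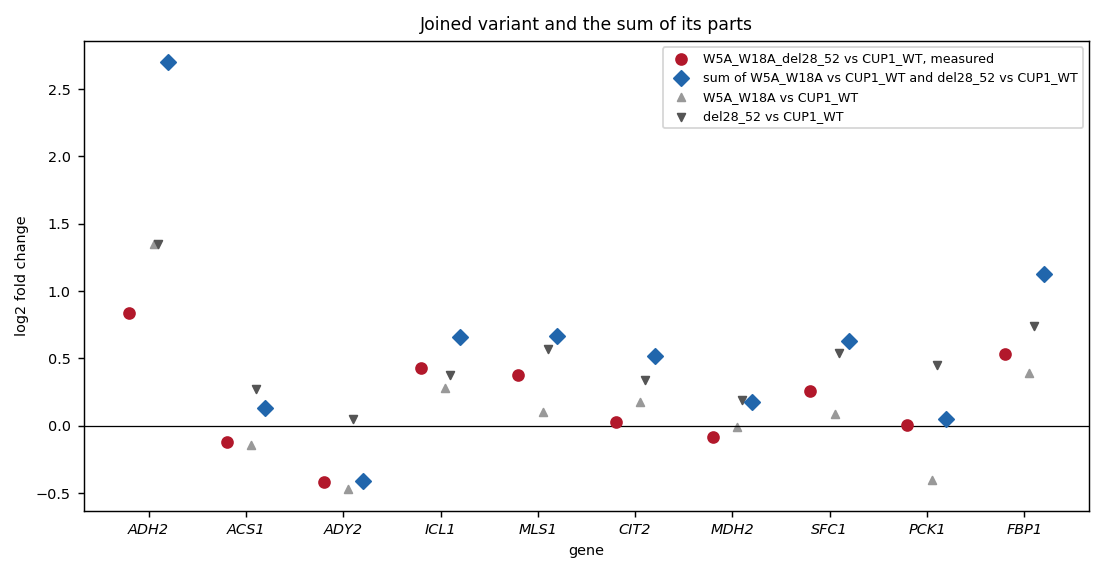
Log2 fold change over CUP1_WT (y axis) of each gene (x axis) in W5A_W18A_del28_52 as measured (circles), as the sum of its 2 parts (diamonds) and in each part (triangles). The gap is widest for ADH2, measured at 0.84 with a sum of 2.7.

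Replicate number, which the titles share across strains, moved 2 of the 10 genes (48.7% of all genes tested). SFC1 was 0.42 higher in replicate 3 than in replicate 1 (SE 0.06, limma adjusted p = 3.85e-06) and higher in 13 of 13 strains. ADY2 was 0.33 lower (limma adjusted p = 0.0184) and higher in only 2 of 13 strains. Middle meiosis sums were also lowest in replicate 3 of CUP1_WT, pho92_null and WT, and their part was not tested.

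Other genes of the same metabolism were examined by list, and the genes named below as risen or fallen had a limma adjusted p of at most 0.0381. The counts stand against all genes tested, of which 39.9% were called in CUP1_WT against pho92_null (20.8% lower), 20.5% in W177A against CUP1_WT (13.5% higher), 33.2% in pho92_null against WT and 1.66% in CUP1_WT against WT. Of 17 further genes of acetate, ethanol and organic acid use, 1 rose and 9 fell in CUP1_WT against pho92_null, and 8 rose and 1 fell in W177A against CUP1_WT. ACS2, the second acetyl-CoA synthetase, fell by 2.13 in CUP1_WT against pho92_null and rose by 1.56 in W177A over CUP1_WT. Its libraries had 650, 705 and 822 CPM in W177A, 225, 206 and 314 CPM in CUP1_WT libraries, 791, 1435 and 1081 in those of pho92_null and 231, 208 and 310 in those of WT. ACS2 thus separated strains among which its paralogue ACS1 was not called.

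ATO3, a plasma membrane protein of the same family as ADY2, fell in CUP1_WT by 1.67 against pho92_null and by 0.80 against WT and rose by 1.03 in W177A over CUP1_WT. IDP3, the peroxisomal isocitrate dehydrogenase, fell by 0.82 in CUP1_WT against WT, as did ACH1, an acetyl-CoA hydrolase, by 0.50. Among the 12 paralogues of the members, 7 fell and 1 rose in CUP1_WT against pho92_null, where 20.8% of all genes were called lower. CIT3, a mitochondrial citrate synthase, fell by 1.61 there and by 1.15 against WT, with 1987, 1951 and 1770 CPM in CUP1_WT libraries, 5053, 6018 and 6401 in those of pho92_null and 4295, 3993 and 4378 in those of WT. Its order of the 3 strains was that of ADH2. ICL2, a mitochondrial relative of ICL1, fell by 0.47 against pho92_null and by 0.55 against WT, and CIT1, the citrate synthase of the citric acid cycle, was not called in either.

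Acetyl units also move by carnitine and arise from fatty acids. In the carnitine acetyl shuttle, 4 of 5 genes fell in CUP1_WT against pho92_null (20.8% of all genes called lower) and 3 of 5 against WT (1.66% of all genes called), and 2 of 5 rose in W177A over CUP1_WT. YAT2, a carnitine acetyltransferase, fell by 1.11 against pho92_null and by 0.81 against WT and rose by 0.90 in W177A. Of 13 genes of peroxisomal fatty acid oxidation, 6 fell and none rose in CUP1_WT against pho92_null, and 9 rose and none fell in W177A over CUP1_WT (list median 0.65, against 0 over all genes). FAA2, an acyl-CoA synthetase, had 383, 400 and 463 CPM in W177A, 176.9, 175 and 226 CPM in CUP1_WT libraries and 417, 350 and 484 in those of pho92_null. In CUP1_WT against WT, 0 of the 13 were called by limma or with limma-voom weights, and 4 had an unadjusted p under 0.05.

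Of 17 genes of the citric acid cycle, 1 rose and 3 fell in CUP1_WT against pho92_null and 4 rose in W177A over CUP1_WT, where SDH2, a succinate dehydrogenase subunit, was at 0.72. Called in either direction, these are 23.5% of the list in both comparisons, against 39.9% and 20.5% of all genes. Of 10 reversible glycolysis enzymes, 4 fell in CUP1_WT against pho92_null (list median -1.13), among them PGI1 (-1.39) and FBA1 (-1.28), and 6 rose in pho92_null against WT. The 40% called in CUP1_WT against pho92_null is the share of all genes (39.9%), and 33.2% of all genes were called in pho92_null against WT. In W177A over CUP1_WT 0 of the 10 were called by limma or with limma-voom weights, and 0 had an unadjusted p under 0.05. Of 7 genes for the glycolytic steps that gluconeogenesis bypasses, CDC19, pyruvate kinase, fell by 1.10 in CUP1_WT against pho92_null and was the one called.

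Among 16 regulators of these genes, 3 rose and 3 fell in CUP1_WT against pho92_null, and 5 rose and 2 fell in W177A over CUP1_WT. The called share was 37.5% of the list against 39.9% of all genes in CUP1_WT against pho92_null, and 43.8% against 20.5% in W177A over CUP1_WT. SIP4, which binds the CSRE, rose by 0.67 in W177A and ERT1, a regulator of PCK1 and FBP1, by 0.74. MIG1, the glucose repressor, rose by 1.32 in pho92_null against WT and fell by 0.87 in CUP1_WT against pho92_null. PIP2, an oleate-response factor, fell by 0.93 in CUP1_WT against pho92_null and rose by 0.81 in W177A. Of 6 retrograde regulators of CIT2, 2 rose in CUP1_WT against pho92_null, RTG1 by 0.78 and MKS1 by 0.46. Of 8 genes of GID, the ubiquitin ligase that removes gluconeogenic enzymes when glucose returns, GID8 rose by 0.45 there and was the one called.

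**Figure D4:**
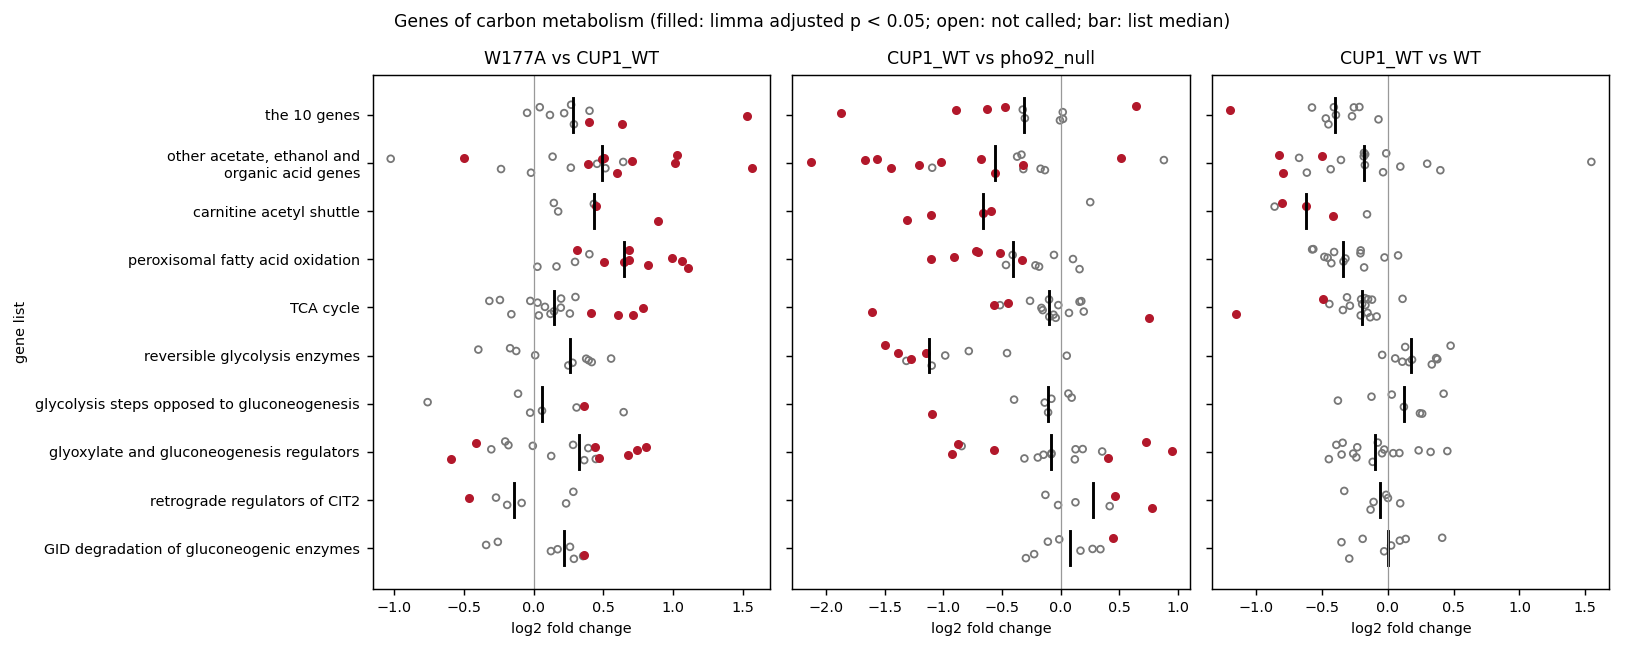
Log2 fold change (x axis) of single genes by list (rows) in W177A over CUP1_WT, CUP1_WT over pho92_null and CUP1_WT over WT, with filled points for a limma adjusted p under 0.05 and a bar at the list median. The peroxisomal genes lie to the right in W177A over CUP1_WT, where 9 of 13 were called, and to the left in CUP1_WT over pho92_null, where 6 of 13 were.

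The 10 genes did not move as 1 block. Over the 39 libraries, 34 of the 45 pairs had a positive Pearson correlation of log2 CPM, 12 were over 0.5 and the median was 0.34, as a description of libraries that share strain, replicate number and scaling. ADH2 went with CIT2 (0.71) and FBP1 (0.66), and MLS1 with SFC1 (0.69). PCK1 went with ACS1 (0.62), ADY2 (0.60) and MDH2 (0.59) and against ADH2 (-0.32). The PCK1 pairs kept this after strain means were subtracted, with 0.49, 0.56 and 0.60, whereas ADH2 and FBP1 had 0.81 between strain means and -0.17 within strains. The within-strain values include del110_155 replicate 3, which stands apart (PCK1 1603 CPM, ADY2 8880 CPM), and were not computed without it.

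**Figure D5:**
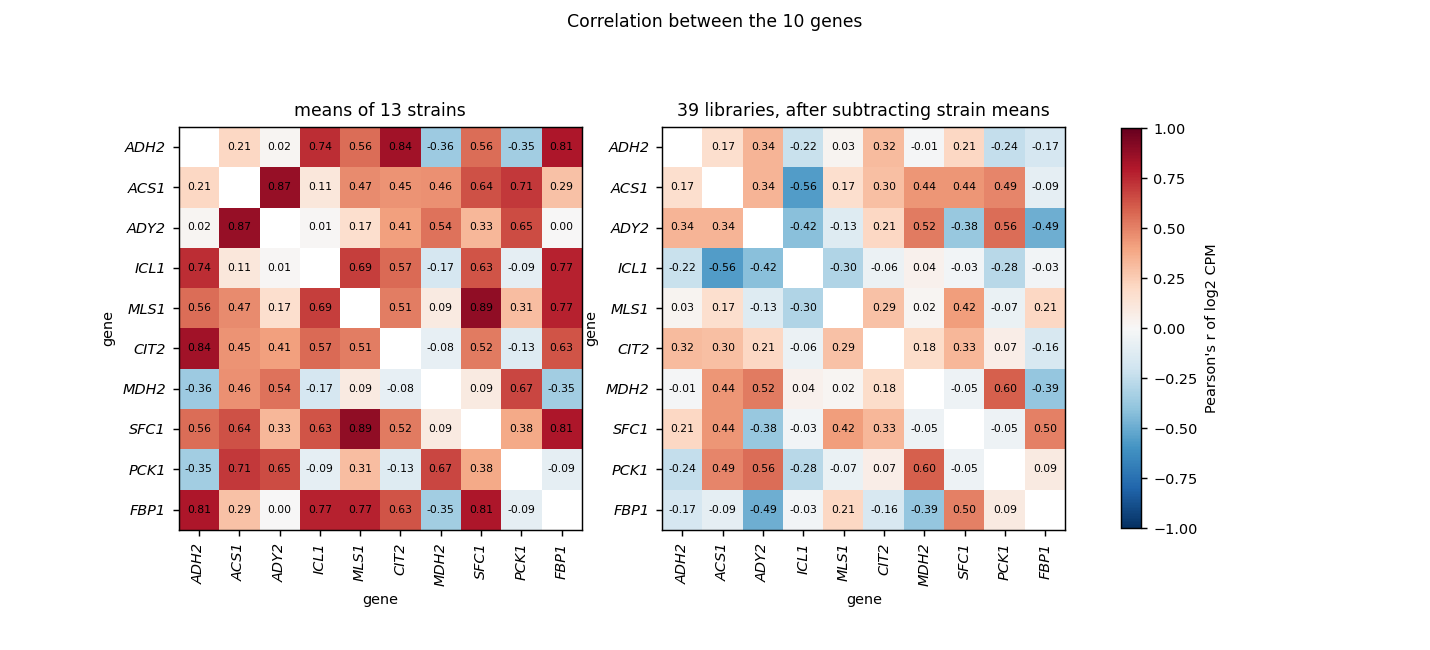
Pearson correlation of log2 CPM between pairs of the 10 genes (rows and columns), over the means of 13 strains (left) and over the 39 libraries after strain means were subtracted (right). ADH2 with FBP1 is 0.81 on the left and -0.17 on the right, and PCK1 with MDH2 is 0.67 and 0.60.

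Of 5493 other genes, those whose log2 CPM followed the mean of the 10 standardised genes most closely over the 39 libraries were ATP1 (0.887), a subunit of the mitochondrial ATP synthase, UBP15 (0.864), a ubiquitin protease, SEC7 (0.862), a guanine nucleotide exchange factor of the Golgi, FOX2 (0.854), the multifunctional enzyme of peroxisomal fatty acid oxidation, and TPO4 (0.849), a polyamine transporter. UBP15 is the next gene to ADH2 on the chromosome and is transcribed away from it, so that the ADH2 stretches printed above also lie upstream of UBP15. Whether this bears on its correlation with the 10 genes was not tested. The genes that followed ADH2 itself most closely were ATO3 (0.907), ETR1 (0.856), PEX11 (0.839), BCP1 (0.838) and RTP1 (0.834).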

How the data were processed

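Gene counts of 39 libraries were read from 1 table deposited by the authors. Below 46 heading and annotation lines, its columns hold whole-number counts for 6186 features, and because the columns mix other values with counts the planned count test was not run. STAR 2.7.10a, RSEM 1.3.1 and DESeq2 1.48.1 are named in the submitters' processing notes, without their settings. Neither the genome build nor whether strand was used for counting is given in the sources used here. Of the features, 5630 matched a RefSeq R64 locus tag.

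A feature was kept if 3 or more libraries reached the rate that equals 10 counts in a library of median size and its counts summed to 15 or more (5840 features). CPM was scaled by trimmed mean of M-values, and limma 3.58.1 (R 4.3.3) fitted log2 CPM (prior count 2, which understates changes of low genes) with a coefficient per strain over all 39 libraries and a variance trend. P-values were adjusted by Benjamini-Hochberg over the 5840 genes of a comparison. Replicate pairs differed by 12.8 to 565 chi-square per degree of freedom, so no pair agreed within sampling noise. Replicate numbers come from the titles, and same-numbered libraries deviated together (mean correlation 0.286, against -0.139 for other numbers). In 9 of 23 comparisons every same-numbered pair was above 0.1: CUP1_WT against WT, 5 variants (W5A, W18A, del28_52, del110_155 and W5A_W18A_del28_52_110_155) against CUP1_WT, and 3 (W5A, del28_52 and W5A_W18A_del28_52) against pho92_null.

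The 10 genes, the lists and the markers were chosen with earlier results of these data known. All 10 genes are named in every comparison. From each list up to 3 called genes of greatest change, with at least 50 counts on average in the higher strain, could be named, and further genes by their correlation with the 10. The alternatives were median-of-ratios (RLE) scaling, no low-count filter, a prior count of 0.5, limma-voom weights, fits of only the strains compared, a replicate block and leaving out each library.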

Additional observations from a re-analysis of the deposited data

Results flagged for a closer look

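ADH2 in W5A_W18A_del28_52 departed from the sum of the effects of W5A_W18A and del28_52 by -1.87 on the log2 scale (SE 0.29, limma adjusted p = 0.00228). What drew attention is the test of the difference between the effects themselves: the joined variant was 0.84 above CUP1_WT, whereas its parts were 1.35 and 1.35 above it. Its libraries, at 4138, 3305 and 2464 CPM, overlap those of W5A_W18A (4962, 3617 and 5503 CPM) and are below all of those of del28_52 (4487, 5181 and 4209 CPM). The sum of the parts, 2.7, lay above the highest variant, del110_155 (2.26), and above pho92_null, against which CUP1_WT was at -1.88. A joined variant at the pho92_null level would thus also have fallen short of the sum.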

How the results depend on the processing

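Of 51 results called among the 10 genes, 19 were called in every setting run, and 0 of all results turned their direction while called. The planned edgeR and DESeq2 count tests were not run, because the deposited columns mix counts with other values. RLE scaling and dropping the low-count filter each left 1 of 10 genes called in W5A_W18A_del28_52 against CUP1_WT (11.9% and 10.5% of all genes). Each of these settings also ended 5 calls of single genes: FBP1 in pho92_null against WT and in W5A_W18A_del28_52 against CUP1_WT, CIT2 in W177A and del28_52_130_155 and ICL1 in W5A_W18A_del28_52_110_155 against CUP1_WT. A prior count of 0.5 changed 0 of 250 results and limma-voom weights added 2. With the replicate block the counts against CUP1_WT became 2 for W5A_W18A (43.5% of all genes called), 5 for del1_70 (15%) and 4 for W5A_W18A_del28_52 (21.1%). Against pho92_null they became 1 each for W177A (12.1%), W5A (21.9%) and W5A_W18A (17.2%) and 2 for W5A_W18A_del28_52 (8.66%). The sum of parts had 2 (24%). The block added 16 calls and ended 0. Fitting only the strains compared gave 1 for pho92_null against WT (7.45% of all genes called), 0 for CUP1_WT against WT (0.0349%) and 2 for CUP1_WT against pho92_null (16.5%). Against CUP1_WT it gave 3 for W5A_W18A (32.2%), 6 for del28_52 (22.1%) and 2 each for del110_155 (8.35%) and del28_52_130_155 (15%). It gave 1 for W5A_W18A_del28_52_110_155 (1.23%) and 0 for del1_70 and W5A_W18A_del28_52, where 0% of all genes were called. Against pho92_null it gave 3 for W18A (14.8%) and 0 for del1_70, del28_52, del28_52_130_155, W5A_W18A_del28_52 and W5A_W18A_del28_52_110_155, where at most 0.0176% of all genes were called. Those fits use fewer libraries to estimate the spread.

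Leaving out 1 library at a time gave 1 to 2 called genes for pho92_null against WT, 1 in each case for CUP1_WT against WT and 3 to 6 for CUP1_WT against pho92_null. Against CUP1_WT the counts ran from 1 to 2 for W177A, 1 to 3 for W5A, 1 to 2 for W5A_W18A, 1 to 3 for del1_70, 3 to 4 for del28_52, 3 to 6 for del110_155, 3 to 4 for del28_52_130_155, 0 to 2 for W5A_W18A_del28_52 and 1 to 2 for W5A_W18A_del28_52_110_155, and stayed at 0 for W18A. Against pho92_null they ran from 0 to 2 for W177A, 4 to 5 for W18A, 1 to 3 for del1_70, and 0 to 1 for W5A, W5A_W18A, del28_52, del28_52_130_155, W5A_W18A_del28_52 and W5A_W18A_del28_52_110_155, and stayed at 0 for del110_155. The sum of parts had 1 to 2. The share of all genes called moved as well: against pho92_null it ran from 0.0171% to 14.4% for W177A, 0.325% to 20.7% for del1_70, 0.257% to 12.9% for del28_52, 0.0171% to 2.14% for del110_155, 0.377% to 10.6% for del28_52_130_155, 0.291% to 1.4% for W5A_W18A_del28_52 and 0.24% to 23.5% for W5A_W18A_del28_52_110_155. It ran from 33.2% to 48.4% for del110_155, 11% to 26.6% for W177A and 14.2% to 39.9% for W5A_W18A against CUP1_WT, from 24.6% to 43.7% for CUP1_WT against pho92_null, and from 0.428% to 21.9% for the sum of parts. Against CUP1_WT it was 21.4% to 44.6% for W5A, 5.24% to 9.64% for del1_70, 10.4% to 23.9% for del28_52 and 12.7% to 27.5% for del28_52_130_155. It was 5.81% to 15.4% for W5A_W18A_del28_52 and 8.91% to 14% for W5A_W18A_del28_52_110_155. Against pho92_null it was 22.7% to 41% for W18A, 6.51% to 16.2% for W5A and 6.9% to 10.3% for W5A_W18A. Against WT it was 14.3% to 37.6% for pho92_null and 0.856% to 1.54% for CUP1_WT. The cause of these changes was not tested.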
